A study of Mus musculus with 9 samples.

Results

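The cell division genes described here are 44 genes of DNA replication and mitosis, chosen by symbol from the 54532 genes of a count table made from injured mouse muscle. These genes were chosen with earlier results of these data known. They were divided by role into 15 S phase genes and 29 genes of mitosis, the cyclins of S, G2 and M phase included. The S phase genes copy the DNA, supply its nucleotides or drive entry into S phase. All 44 were found in the table, and all 44 passed the filter on low counts in each comparison. RNA was sequenced from 3 groups of 3 libraries, in which tibialis anterior muscle of C57BL/6J mice had been injured with barium chloride (BaCl2), a salt that destroys muscle fibres. Young PBS mice were 4 months old and old PBS mice 24 months old, and the injured muscles of both received 3 injections of saline. Old rMETRNL mice were also 24 months old and received 3 injections of recombinant METRNL, a secreted protein, into the injured muscle. All 3 groups therefore share the injury and the injections, and no uninjured muscle was analysed here. The labels describe a suspension of cells from the digested muscle and the series description gives day 4 after injury, whereas the methods of the study describe whole muscle at day 8, so the age of the injury is uncertain.

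A cell that divides copies its DNA in S phase, separates the copies in mitosis and splits in cytokinesis, and each step needs proteins that are made for it shortly before. Transcription of the S phase genes depends on E2F factors, and that of the mitosis genes on the MuvB complex with B-MYB and FOXM1. After muscle injury, satellite cells (the muscle stem cells), fibro-adipogenic progenitors, endothelium and immune cells all divide, so the sum of these transcripts in a piece of muscle follows how many cells are dividing. In bulk RNA, fewer dividing cells and less of each transcript per dividing cell cannot be told apart.

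The promoters of the mitosis genes are shown because they carry letters of the elements that these factors are known to use. RefSeq promoters of GRCm38.p6, 300 bases each, from 250 before the start to 50 after it, were matched by symbol for 36 of the 44 members, with 38 promoters in all. Those of Mcm4, Gins2, Ccne2, Ccna2, Foxm1, Aurkb, Kif20a and Tpx2 were not matched. The letters searched on both strands were TTNGAA, with T or C at the N, for the cell cycle genes homology region (CHR), to which MuvB binds, CCAAT for the NF-Y box, and TTNNCGC, with C or G at each N, for an E2F site, with overlapping matches allowed. CHR letters were in 20 of 25 mitosis promoters (80%), in 2 of 13 S phase promoters (15.4%) and in 19.2% of the 32851 promoters of all genes. E2F letters were in 4 of 25 mitosis promoters (16%), in 7 of 13 S phase promoters (53.8%) and in 9.57% of all. CCAAT was in 88% of the mitosis promoters, 69.2% of the S phase promoters and 37.4% of all, and each mitosis promoter with CHR letters also held CCAAT, which 7.52% of all promoters do together. The 5 mitosis genes without CHR letters in the window were Ccnb1, Melk, Birc5, Cenpe and Nusap1. A match is a description of letters and not a binding site. The stretches below lie before the start of 5 mitosis genes, free of annotated exons, with CHR, CCAAT and E2F letters of either strand in capitals.
Cdk1 (chr10:69352939-69353062, strand -): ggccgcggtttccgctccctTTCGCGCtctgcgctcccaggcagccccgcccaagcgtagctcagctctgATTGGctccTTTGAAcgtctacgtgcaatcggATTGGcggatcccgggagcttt
Top2a (chr11:99024190-99024389, strand -): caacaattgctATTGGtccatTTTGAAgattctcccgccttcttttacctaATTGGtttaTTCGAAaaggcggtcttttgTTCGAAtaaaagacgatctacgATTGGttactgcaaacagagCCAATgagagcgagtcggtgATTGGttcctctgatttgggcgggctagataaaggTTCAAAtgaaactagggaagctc
Cdc20 (chr4:118437353-118437423, strand -): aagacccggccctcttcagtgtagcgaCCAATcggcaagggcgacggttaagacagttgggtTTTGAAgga
Kif11 (chr19:37376302-37376381, strand +): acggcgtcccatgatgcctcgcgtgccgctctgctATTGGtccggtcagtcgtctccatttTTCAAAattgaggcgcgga
Mki67 (chr7:135716380-135716579, strand -): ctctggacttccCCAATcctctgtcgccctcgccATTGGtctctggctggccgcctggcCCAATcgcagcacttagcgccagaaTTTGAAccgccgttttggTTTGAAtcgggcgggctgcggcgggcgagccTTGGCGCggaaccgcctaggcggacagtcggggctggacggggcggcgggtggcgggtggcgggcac

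Of the S phase genes, the stretches of 2 helicase subunits and of a subunit of ribonucleotide reductase are given in the same way. None of the 3 holds CHR letters, and each has E2F letters in capitals beside CCAAT. Not all S phase genes were like this, as the promoters of Mcm2, Pcna, Tyms, Tk1, Ccne1 and E2f1 held no E2F letters in the window.
Mcm5 (chr8:75109329-75109508, strand +): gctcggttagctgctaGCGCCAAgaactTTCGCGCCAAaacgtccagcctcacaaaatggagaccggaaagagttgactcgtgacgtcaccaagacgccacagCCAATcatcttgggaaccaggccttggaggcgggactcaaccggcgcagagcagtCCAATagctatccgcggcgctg
Mcm6 (chr1:128359706-128359825, strand -): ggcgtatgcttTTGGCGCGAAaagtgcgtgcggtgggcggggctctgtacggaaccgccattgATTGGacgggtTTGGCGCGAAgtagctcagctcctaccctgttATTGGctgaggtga
Rrm1 (chr7:102441585-102441694, strand +): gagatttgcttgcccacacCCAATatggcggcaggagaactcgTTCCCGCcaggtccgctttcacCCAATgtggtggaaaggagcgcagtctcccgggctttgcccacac

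Libraries held 16238700 to 22522560 counts, with counts on 21470 to 23950 genes. Levels are given as CPM, counts scaled to a common library size, with TMM factors over the 9 libraries, always in the order young PBS 1, 2 and 3, old PBS 2, 3 and 4, and old rMETRNL 1, 2 and 3. The floor was set at 3 counts, worth 0.131 to 0.202 CPM. Only Ttk, with 2 counts in old PBS 4, was at or under it. The labels do not say how many mice a library came from, so p-values measure the spread between these libraries. Genes of mature muscle fibres took 10.8 to 14.4% of the counts, so the tissue is muscle in every library. The old PBS libraries also stood apart in markers of other tissues. Summed CPM of 6 brain genes was 224, 79.5 and 273 in old PBS and 10.8 to 16.5 in the other 6 libraries, in which Mobp and Snap25 were at 0. Summed CPM of 6 liver genes was 82.5, 31.2 and 8.88 in old PBS and at most 0.462 elsewhere.

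Summed over the 29 mitosis genes, the level was 157.9, 175.9 and 241.6 CPM in young PBS, 133.1, 185.2 and 68.9 in old PBS, and 223.1, 212.0 and 178.6 in old rMETRNL. Old PBS 4 was the lowest of the 9 libraries, and old PBS 3 lay within the range of both other groups. The means were 192 ± 44.1, 129 ± 58.2 and 205 ± 23.2 CPM (SD, n = 3). The 15 S phase genes summed to 209.8, 206.4 and 230.8 CPM in young PBS, 189.3, 186.0 and 182.2 in old PBS, and 222.2, 214.5 and 210.8 in old rMETRNL. Here all 3 old PBS libraries lay below the other 6 and close to each other. Pcna and Rrm1 carry much of this sum. Rrm1, at 62.2, 36.9 and 64.2 CPM in old PBS, ran against most S phase genes and so evened out these sums. On the mean log2 CPM of the 15 S phase genes, old PBS was at 3.02, 3.20 and 2.80, in the same order as the mitosis sums. The other 6 libraries were at 3.29 to 3.55. On the mean log2 CPM of the single genes, the mitosis genes stood 1.93 below the S phase genes in old PBS 4 (a difference of -1.93), and the difference was -1.15 to -0.83 in the other 8 libraries.

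**Figure D1:**
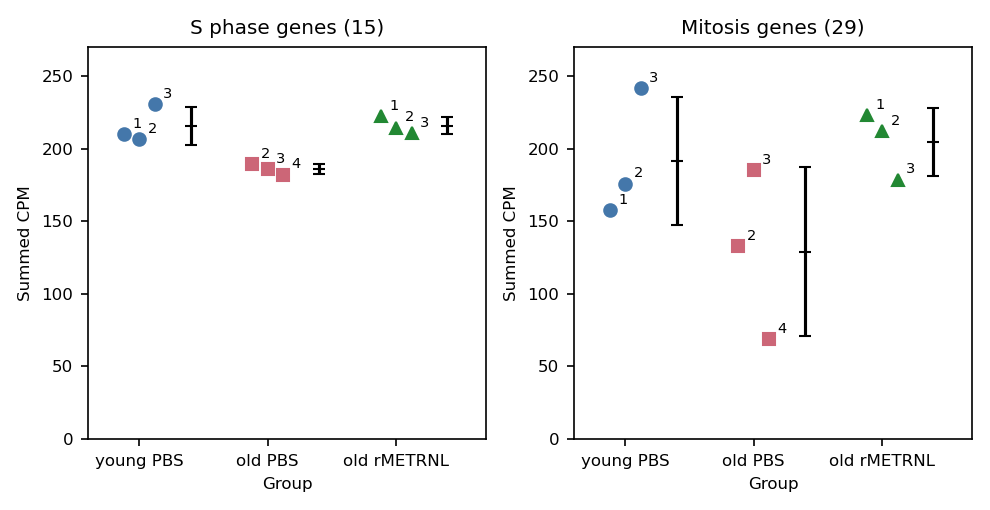
Summed CPM of the 15 S phase genes (left) and the 29 mitosis genes (right) in each library, numbered as in the labels, with the mean ± SD of each group beside the points. The S phase sums of old PBS (182 to 189) lie below the other groups, while the mitosis sums of old PBS spread from 68.9 to 185. The S phase sums include Rrm1, which ran against most S phase genes among the old PBS libraries.

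The 3 old PBS libraries differed widely from each other in these genes. Old PBS 4 was the lowest of the 9 libraries for 34 of the 44 members, 25 of 29 mitosis genes and 9 of 15 S phase genes, and it was the lowest for 25.7% of the 16124 genes kept. Old PBS 4 lay below all 6 libraries of the other groups for 38 members, old PBS 2 for 27 and old PBS 3 for 13, against 32.7, 28.0 and 20.8% of all genes. Taken alone against the young PBS mean, the median log2 difference of the 29 mitosis genes was -1.47 in old PBS 4, -0.51 in old PBS 2 and -0.19 in old PBS 3. The same medians over the 15 S phase genes were -0.56, -0.38 and -0.13. At the other end, young PBS 3 was the highest library for 21 of the 44 members, and for 9.93% of the 16124 genes kept.

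**Figure D2:**
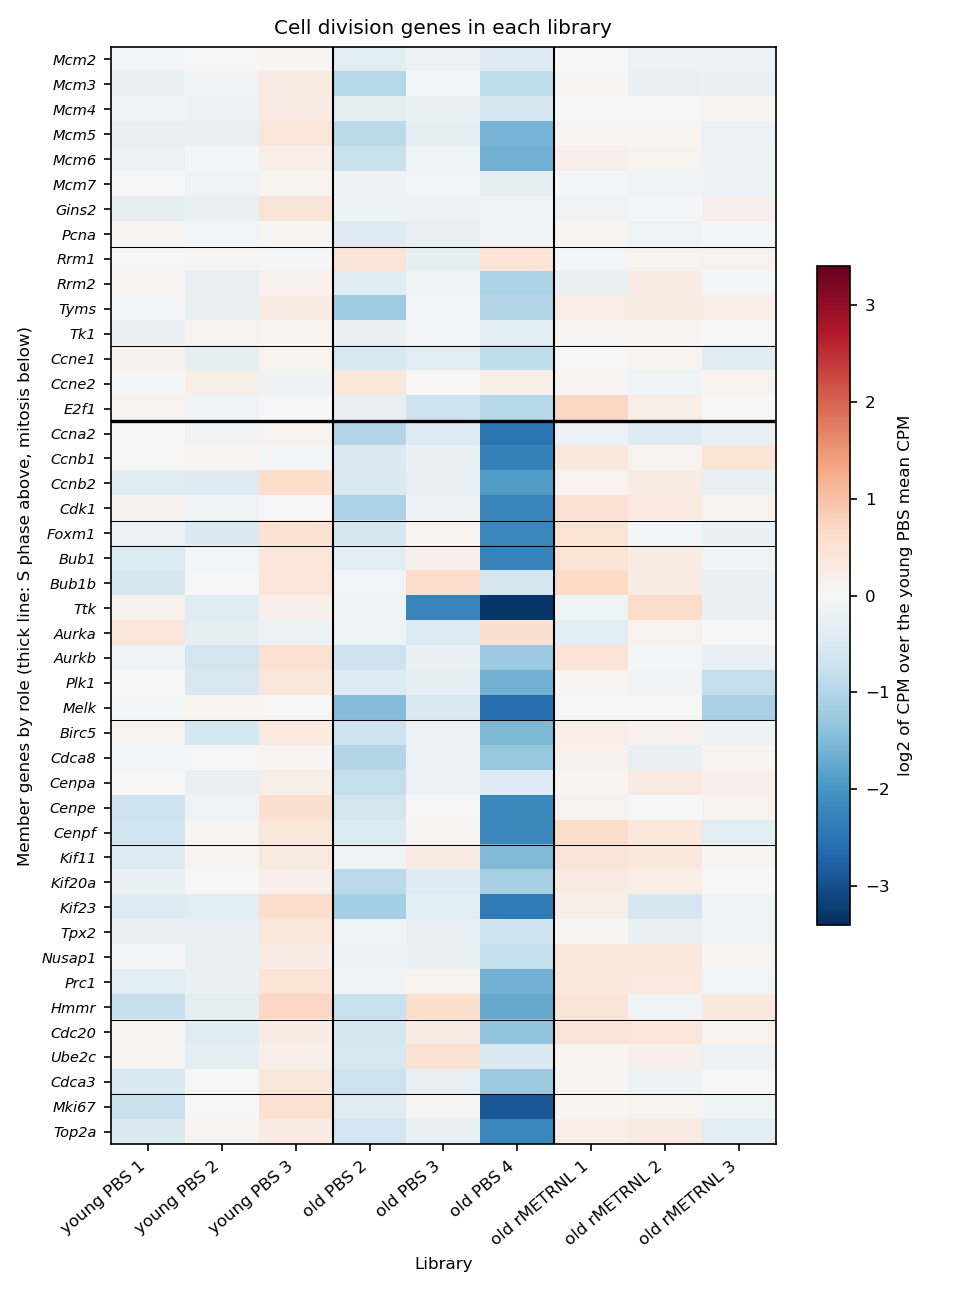
The 44 members (rows, by role) in the 9 libraries (columns), coloured by log2 of the CPM over the young PBS mean. The column of old PBS 4 is blue in most rows and darkest among the mitosis genes, old PBS 3 is near white in most rows, and Rrm1, Ccne2 and Aurka stand out by being red in old PBS 4.

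Other measures of the libraries were set beside the mitosis genes, and only some followed their order. Counts on mitochondrial genes took 8.005, 7.30 and 6.16% of the young PBS libraries, 10.96, 5.85 and 12.8% of the old PBS libraries, and 5.69, 5.88 and 7.97% of the old rMETRNL libraries. In each of the 3 groups the order of the libraries by mitochondrial share was the reverse of their order by summed mitosis CPM. The order by brain genes was the reverse as well in old PBS, but not in young PBS or old rMETRNL. Macrophages are a further source of dividing cells. Their 10 markers summed to 1335, 2019 and 1504 CPM in old PBS, to 1918 to 2208 in young PBS and to 2026 to 2370 in old rMETRNL, and all 10 had their lowest group mean in old PBS. The 8 fibro-adipogenic markers summed to 3289 to 3671 CPM in old PBS, 4513 to 5857 in young PBS and 4255 to 6217 in old rMETRNL, but only 4 of the 8 had their lowest group mean in old PBS. Without Col1a1, a collagen gene that holds much of this sum, the other 7 summed to 1557 to 2869 CPM in old PBS, 1721 to 2330 in young PBS and 2089 to 2852 in old rMETRNL, with old PBS 4 the highest of all libraries. The 6 endothelial markers also each had their lowest group mean in old PBS, with sums of 295, 335 and 229 CPM in old PBS, 332 to 402 in young PBS and 325 to 431 in old rMETRNL. The 8 markers of satellite cells and myoblasts summed to 233, 424 and 143 CPM in old PBS, a range that holds those of young PBS (229 to 264) and old rMETRNL (195 to 299). These satellite cell sums followed the order of the mitosis sums in old PBS and young PBS but not in old rMETRNL. Endothelial sums followed it in old PBS and old rMETRNL but not in young PBS. Sums of all 8 fibro-adipogenic markers followed it in young PBS and old rMETRNL but not in old PBS, and macrophage sums in young PBS alone. The 7 T cell markers summed to 19.8 to 25.4 CPM in old PBS, above the 11.2 to 15.4 of young PBS, and to 14.9 to 22.99 in old rMETRNL, which overlapped old PBS. Erythroid markers were highest in old PBS 4 (894 CPM) and old rMETRNL 2 (738 CPM). The neutrophil and B cell sums overlapped between the groups, and the neutrophil marker Ly6g was at 0 throughout. S100a8, another of the 6 neutrophil markers, was at 1.21, 2.36 and 2.90 CPM in old PBS and at 0.0578 to 0.679 in the other libraries, with adjusted p of 0.000492 against young PBS and 0.010 for rMETRNL by DESeq2 and 0.0948 and 0.174 by edgeR. S100a9, its partner, had adjusted p of 0.0058 and 0.26 by DESeq2. By edgeR it was not tested against young PBS and had adjusted p of 0.604 for rMETRNL. Mmp9 went the other way, with a lower mean in old PBS (2.22, 1.36 and 2.90 CPM) than in young PBS, and young PBS 3 was its highest library. Neither test called Mmp9, Csf3r or Retnlg in these comparisons, with adjusted p of 0.653 (Mmp9 against young PBS, DESeq2) or more. The part of any of these in the levels of the cell division genes was not tested.

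**Figure D3:**
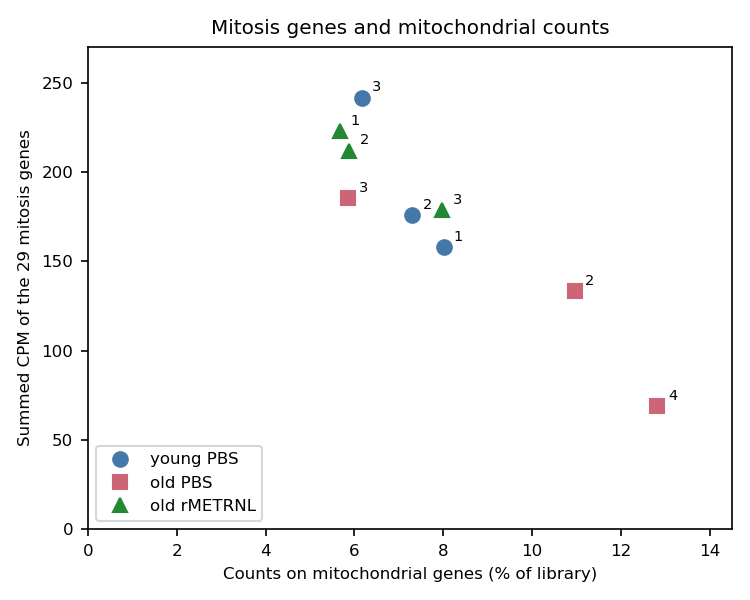
Summed CPM of the 29 mitosis genes against the share of counts on mitochondrial genes, 1 point a library, numbered as in the labels. Old PBS 4 (12.8%, 68.9 CPM) and old PBS 2 (10.96%, 133 CPM) lie at the lower right, and within each group a higher share goes with a lower sum.

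Old PBS was compared with young PBS to ask how these genes differ between old and young regenerating muscle. No member passed the test, in which edgeR's quasi-likelihood test was run on 15560 genes with Benjamini-Hochberg adjustment at 0.05. That test called 0.0643% of all genes, and the adjusted p of the members ran from 0.736 to 0.998. DESeq2 also called no member and 1.42% of all genes. At an unadjusted p under 0.05, edgeR gave 5 of 44 members (Mcm5, E2f1, Ccna2, Melk and Kif20a), all lower in old PBS, where 2.42% of all genes were lower. DESeq2 gave 8, all lower, against 2.45% of the genes kept by edgeR. The means of 40 of 44 members were lower in old PBS by the fit. The median log2 fold change was -0.58 over the 44, -0.36 over the S phase genes, -0.66 over the mitosis genes and 0.014 over all genes tested. In 12 of 44 members every old PBS library lay below every young PBS library, against 5.25% of all genes. Members vary together across libraries, so 12 of them are not 12 separate observations. Without old PBS 3 the median over the members was -0.95, with no member called and 0.705% of all genes called lower, and without old PBS 4 it was -0.33 and without young PBS 3 -0.31.

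Old rMETRNL was compared with old PBS to ask whether the injections of the protein moved these genes in old muscle. Again no member passed edgeR's test on 15682 genes, which called 0.108% of all genes, with adjusted p from 0.376 to 0.958 over the members. DESeq2 called no member and 1.78% of all genes. At an unadjusted p under 0.05, edgeR gave 9 of 44 members (Mcm5, Mcm6, Tyms, E2f1, Ccnb1, Cdk1, Cenpa, Kif20a and Nusap1), all higher in old rMETRNL, where 3.51% of all genes were higher. DESeq2 gave 11, all higher, against 3.39% of the genes kept by edgeR. The fitted means of 41 of 44 members were higher in old rMETRNL, and the median log2 fold change was 0.66 over the 44, 0.36 over the S phase genes, 0.72 over the mitosis genes and -0.0056 over all genes. In 16 of 44 members all old rMETRNL libraries lay above all old PBS libraries, against 6.95% of all genes. These were Mcm2, Mcm4, Mcm5, Tyms, Tk1, E2f1, Ccna2, Ccnb1, Ccnb2, Cdk1, Birc5, Cenpa, Cenpe, Kif20a, Nusap1 and Cdca3. In Mcm2, Ccna2, Ccnb2, Birc5 and Cenpe the nearest libraries of the groups were almost level, as in Mcm2 at 13.30 CPM (old rMETRNL 2) against 13.26 (old PBS 3). Members vary together across libraries, so 16 of them are not 16 separate observations. Both comparisons use the same old PBS libraries, so they are not independent of each other.

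The count of members called for rMETRNL depended on one library and on the filter. Without old PBS 3, the old PBS library nearest to the other groups, 9 of 44 members passed edgeR's test and all were higher in old rMETRNL, where 3.78% of all genes were called higher. They were Mcm3, Mcm5, Mcm6, Tyms, Cdk1, Cenpa, Kif20a, Kif23 and Cdc20, with log2 fold changes from 0.76 ± 0.21 (Mcm3, SE, adjusted p 0.049) to 1.86 ± 0.34 (Cdk1, adjusted p 0.012). The median over the members was then 1.01, and it was 0.34 without old PBS 4. Old PBS 3 was nearest to the other groups in these same genes, so leaving it out was bound to widen the difference. The 9 calls are therefore not separate evidence of a change. Without the filter on low counts, Cdk1, Top2a and E2f1 passed, with adjusted p of 0.0045, 0.0175 and 0.0463 by edgeR, and 0.541% of all 28995 genes with a count were called higher.

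**Figure D4:**
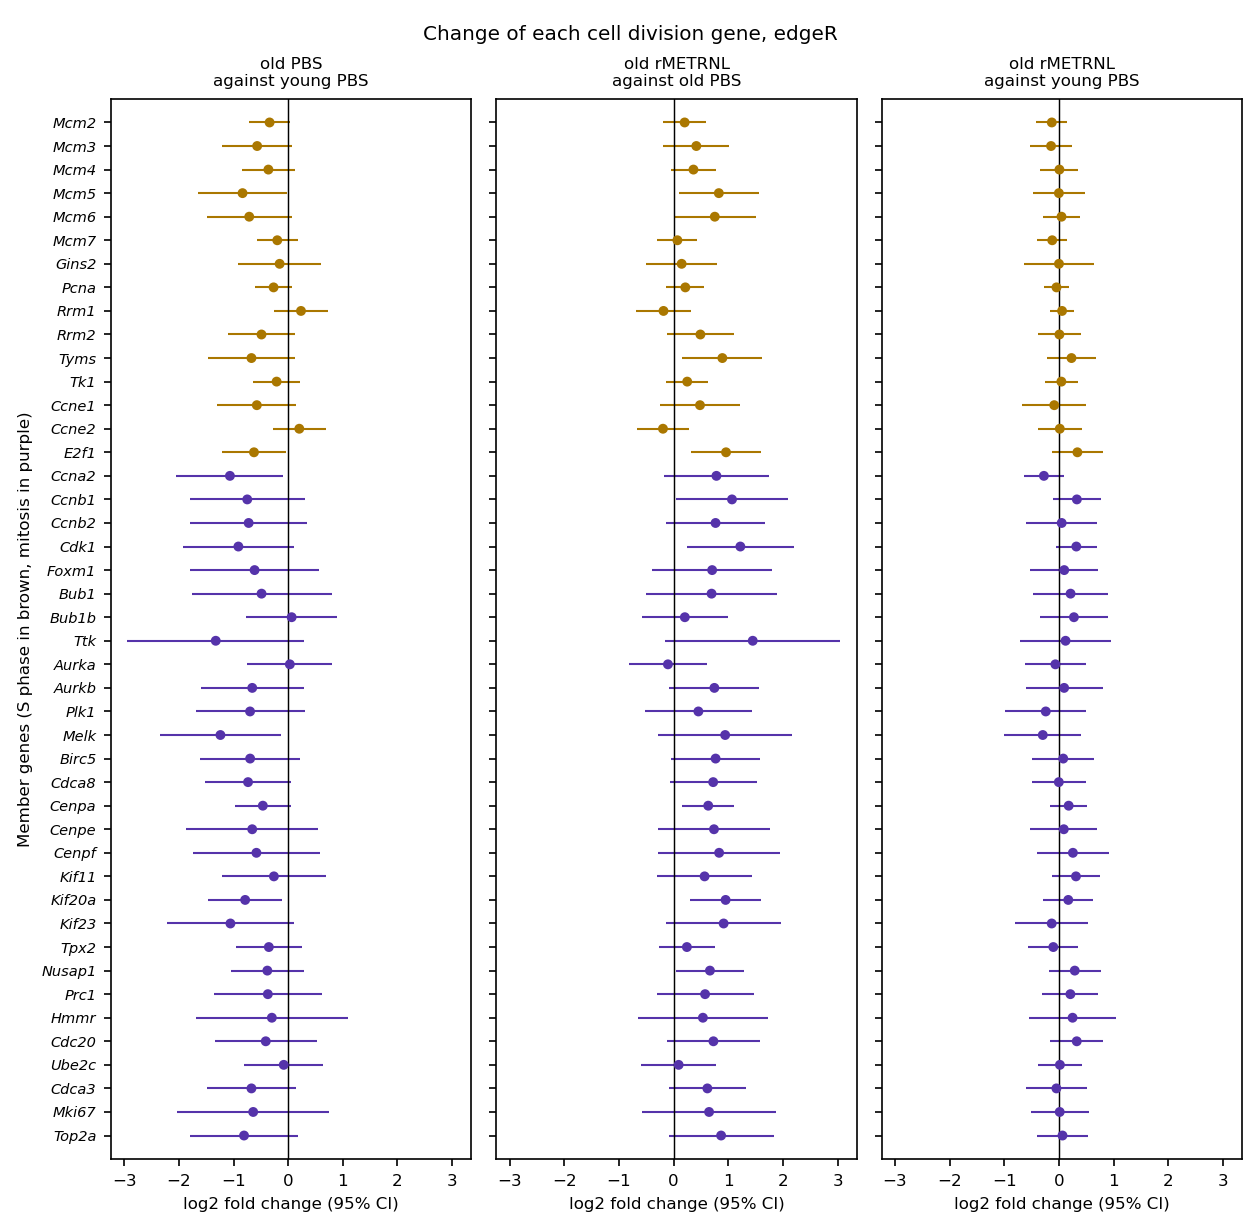
Log2 fold change of each member with its 95% confidence interval in the 3 comparisons by edgeR (S phase genes in brown, mitosis genes in purple). Most points lie left of 0 for old PBS against young PBS and right of 0 for old rMETRNL against old PBS, with intervals that mostly cross 0, and near 0 for old rMETRNL against young PBS.

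In the third comparison, old rMETRNL against young PBS, no gene of 15396 was called by edgeR (0% of all genes) or by DESeq2 (0%). At an unadjusted p under 0.05, 2.41% of all genes and 0 of 44 members were reached by edgeR, and 1.7% of the genes kept by edgeR and 0 members by DESeq2. The median log2 fold change of the members was 0.047, and their values ran from -0.30 (Melk, 95% interval -1.004 to 0.41) to 0.34 (E2f1, 95% interval -0.12 to 0.80). Groups without overlap made up 6.87% of all genes and 2 members, Ccna2, lower in old rMETRNL, and Ccnb1, higher in it. The log2 fold changes of these were -0.28 (95% interval -0.64 to 0.09) and 0.33 (95% interval -0.12 to 0.77). A p that misses the threshold does not show that the 2 groups were alike, and the intervals give what the libraries leave possible.

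Among the genes of DNA replication, the helicase and clamp list held 8 members, all with lower fitted means in old PBS and none called. Pcna, the sliding clamp of the replication fork, had the highest level per length of all members at 15.3 CPM per kb of exon. It was at 41.3, 36.7 and 40.1 CPM in young PBS, 29.2, 32.6 and 36.5 in old PBS, and 40.9, 35.5 and 37.9 in old rMETRNL. The old PBS libraries lay below all young PBS libraries, and old PBS 4 was the highest of them, the reverse of its place in most members. The log2 fold change was -0.27 ± 0.15 (SE, edgeR adjusted p 0.969) for old against young and 0.21 ± 0.15 (adjusted p 0.749) for rMETRNL against old PBS. Mcm7, a subunit of the helicase that opens the DNA, was at 17.9, 16.3 and 18.7 CPM in young PBS, 15.7, 16.4 and 14.04 in old PBS, and 17.0, 15.9 and 15.6 in old rMETRNL, with overlap between all groups. Mcm5, another subunit, differed more. It was at 6.18, 6.11 and 9.82 CPM in young PBS, 3.91, 5.95 and 2.46 in old PBS, and 7.93, 7.76 and 6.43 in old rMETRNL. All old PBS libraries were below the other 6, with a log2 fold change of -0.84 ± 0.36 (edgeR adjusted p 0.835) against young PBS and 0.83 ± 0.32 (adjusted p 0.550) for rMETRNL. Mcm5, Cdk1, Ccnb1 and Kif20a are given in full although the rule for named genes does not reach them, a choice made with their values in view. The other 5 helicase genes, Mcm2, Mcm3, Mcm4, Mcm6 and the helicase cofactor Gins2, had mean levels of 2.45 to 17.5 CPM in young PBS and 2.20 to 12.1 CPM in old PBS. Gins2 shares 67.3% of its exon bases with Gse1 on the other strand in the GRCm38 annotation, and the strand setting of the counting is not given in the sources used here.

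Of the 4 genes of nucleotide supply, ribonucleotide reductase is encoded by Rrm1 and Rrm2, which make deoxynucleotides. Rrm1 was at 46.1, 47.7 and 44.6 CPM in young PBS, 62.2, 36.9 and 64.2 in old PBS, and 44.5, 48.8 and 50.6 in old rMETRNL. Old PBS 2 and 4 were above every other library and old PBS 3 below, so that Rrm1 had the largest positive change of all members for old against young, 0.23 ± 0.22 (SE, edgeR adjusted p 0.994). Rrm2, the subunit whose level is tied to S phase, was at 11.2, 8.55 and 11.6 CPM in young PBS, 7.82, 9.49 and 4.97 in old PBS, and 9.004, 12.5 and 10.01 in old rMETRNL. Its log2 fold changes were -0.49 ± 0.27 (adjusted p 0.969) and 0.49 ± 0.27 (adjusted p 0.682). The paired subunits thus differed in sign, with overlapping groups in both. Tyms, which makes thymidylate, and Tk1, which salvages thymidine, had means of 2.98 and 12.6 CPM in old PBS, 4.79 and 14.6 in young PBS, and 5.62 and 15.01 in old rMETRNL.

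E2f1, the transcription factor that drives entry into S phase, was at 6.88, 5.72 and 6.44 CPM in young PBS, 5.26, 3.89 and 3.21 in old PBS, and 10.4, 7.25 and 6.43 in old rMETRNL. All old PBS libraries lay below the other 6. The log2 fold change was -0.63 ± 0.26 (edgeR adjusted p 0.797) for old against young and 0.96 ± 0.29 (adjusted p 0.376) for rMETRNL against old PBS, the lowest adjusted p of any member in that comparison. Ccne2, a cyclin E of the G1/S transition, was at 6.18, 7.28 and 5.70 CPM in young PBS, 8.29, 6.48 and 7.37 in old PBS, and 6.59, 5.77 and 6.97 in old rMETRNL. It was not lower in old PBS, with 0.20 ± 0.21 (adjusted p 0.994) for old against young. The other cyclin E gene, Ccne1, had means of 2.76, 1.85 and 2.60 CPM in young PBS, old PBS and old rMETRNL. Ccne2 shares 17.4% of its exon bases with Ints8 on the other strand, which was at 17.7 to 25.2 CPM.

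The 4 genes of the mitotic cyclins and their kinase had the largest median changes of the 10 role lists, -0.83 for old against young and 0.93 for rMETRNL against old PBS, none called. Cdk1, the kinase that starts mitosis, was at 7.92, 6.55 and 7.11 CPM in young PBS, 3.44, 6.39 and 1.51 in old PBS, and 10.02, 9.06 and 7.83 in old rMETRNL. Old PBS 3 lay just under the lowest young PBS library, and the other old PBS libraries far below. Cdk1 had log2 fold changes of -0.91 ± 0.44 (edgeR adjusted p 0.901) and 1.22 ± 0.43 (adjusted p 0.485). Ccna2, the cyclin A of S and G2 phase, was at 8.32, 7.78 and 9.20 CPM in young PBS, 4.25, 6.21 and 1.51 in old PBS, and 7.40, 6.23 and 7.24 in old rMETRNL. The 3 groups did not overlap at all, although old PBS 3 and old rMETRNL 2 were nearly level, and the changes were -1.07 ± 0.43 (adjusted p 0.773) and 0.78 ± 0.42 (adjusted p 0.682). Ccnb1 and Ccnb2 are the B cyclins that activate Cdk1. Ccnb1 was at 4.05, 4.22 and 3.90 CPM in young PBS, 2.90, 3.46 and 0.818 in old PBS, and 5.25, 4.42 and 5.57 in old rMETRNL, again with no overlap between any of the groups. Ccnb2 was at 3.35, 3.28 and 6.72 CPM in young PBS, 3.17, 3.68 and 1.20 in old PBS, and 4.82, 5.27 and 3.76 in old rMETRNL. Ccnb2 overlapped between young and old PBS, and its young PBS 3 library was the highest of all. Pcna, Tyms, Ccnb1 and Ccnb2 have processed pseudogenes in the annotation, with which reads could have been shared.

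**Figure D5:**
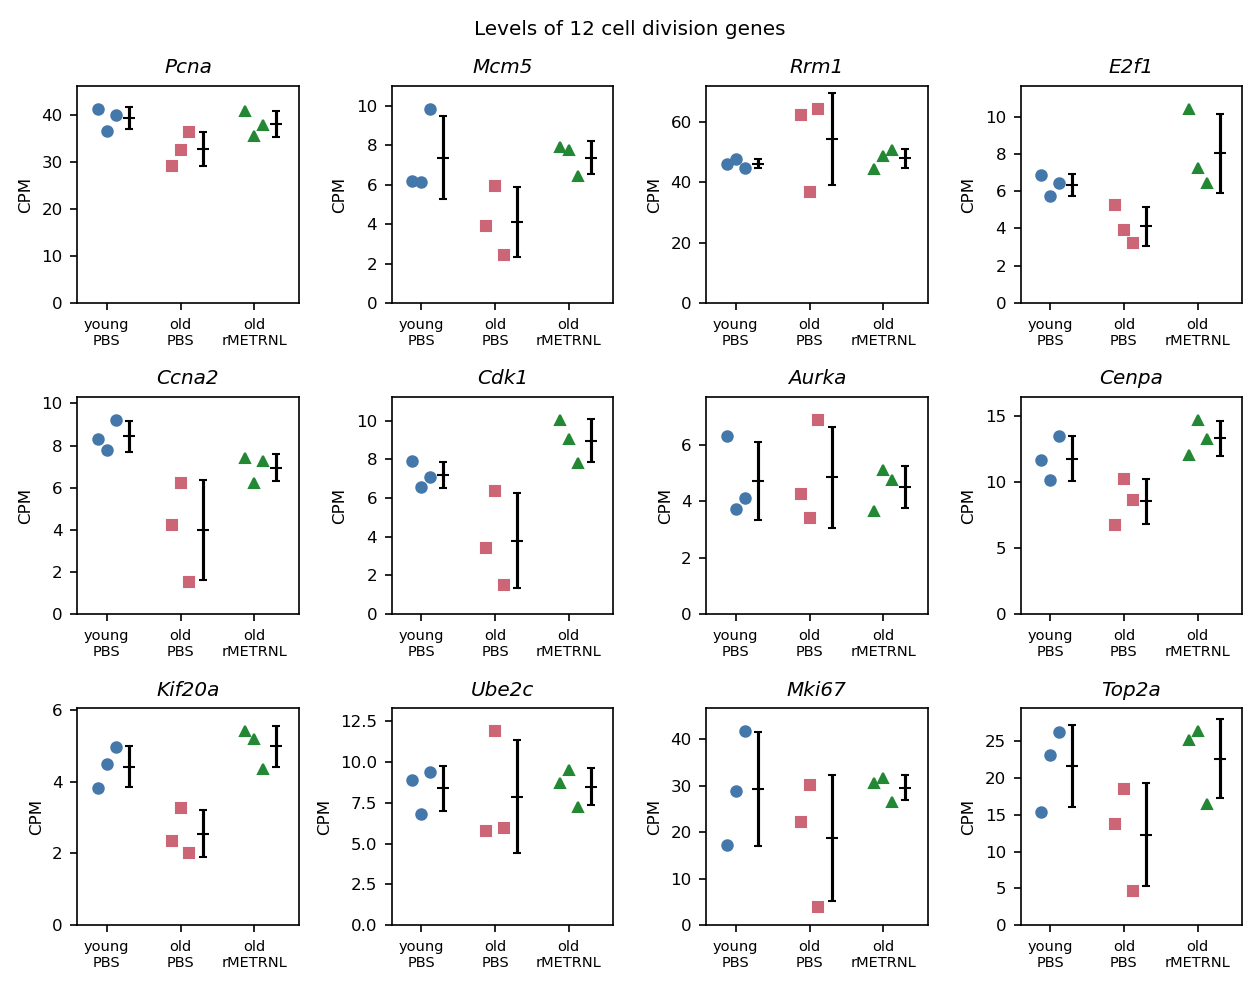
CPM of 12 members in each library (points) with the mean ± SD of each group (bars, n = 3). In Mcm5, E2f1, Ccna2, Cdk1 and Kif20a the old PBS points lie below those of the other groups, whereas Rrm1, Aurka and Ube2c have old PBS points at the top of their panels.

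Foxm1, the transcription factor of late cell cycle genes, was at 4.34, 3.55 and 6.9998 CPM in young PBS, 3.30, 5.25 and 1.07 in old PBS, and 6.86, 4.87 and 4.21 in old rMETRNL. Its groups overlapped, with changes of -0.61 ± 0.52 (edgeR adjusted p 0.994) and 0.71 ± 0.49 (adjusted p 0.737). Mybl2, which encodes B-MYB and is not a member, was at 1.68, 1.67 and 2.82 CPM in young PBS, 1.15, 2.41 and 0.378 in old PBS, and 2.57, 2.38 and 1.45 in old rMETRNL. Both were lowest in old PBS 4, as were 25 of the 29 mitosis genes. The median level in old PBS 4 over the young PBS mean was 0.321 for the 19 mitosis genes with CHR letters in the promoter and 0.221 for the 5 without them. Of these 5, Melk, Birc5 and Nusap1 held none of the letters searched. Ccna2, Foxm1, Aurkb, Kif20a and Tpx2 had no matched promoter. Old PBS 4 was taken because it was the lowest library, and the difference between the medians was not tested.

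The list of mitotic kinases and the checkpoint, which holds cells back until chromosomes are attached, had 7 members and the widest range of changes. Aurka, which matures the spindle poles, was at 6.30, 3.72 and 4.12 CPM in young PBS, 4.25, 3.41 and 6.86 in old PBS, and 3.64, 5.10 and 4.75 in old rMETRNL. Old PBS 4 was its highest library, and its changes were 0.031 ± 0.34 (edgeR adjusted p 0.998) and -0.10 ± 0.31 (adjusted p 0.953), signs that turned when single libraries were left out. Bub1b, a checkpoint protein, was at 3.47, 5.28 and 6.89 CPM in young PBS, 4.92, 7.83 and 3.53 in old PBS, and 8.31, 6.17 and 4.48 in old rMETRNL, with groups that overlapped. Ttk, the checkpoint kinase Mps1, had the lowest level per length of all members, 0.212 CPM per kb. It was at 1.39, 0.944 and 1.41 CPM in young PBS, 1.15, 0.263 and 0.126 in old PBS, and 1.13, 1.92 and 1.04 in old rMETRNL. Those levels rest on 24, 17 and 25 counts, 17, 6 and 2 counts, and 21, 34 and 23 counts. Ttk gave the largest fitted changes of any member, -1.33 ± 0.71 (adjusted p 0.959) for old against young and 1.45 ± 0.71 (adjusted p 0.661) for rMETRNL against old PBS. Melk, a kinase made in dividing cells, was at 2.49, 2.72 and 2.60 CPM in young PBS, 0.943, 1.84 and 0.441 in old PBS, and 2.57, 2.60 and 1.22 in old rMETRNL. Old PBS lay below young PBS in every library, with -1.24 ± 0.49 (adjusted p 0.758), and old rMETRNL 3 lay within the range of old PBS. Bub1, Aurkb and Plk1 had means of 2.15 to 3.17 CPM in young PBS, 1.51 to 1.996 in old PBS and 2.15 to 3.39 in old rMETRNL, with overlapping libraries.

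Centromere and passenger genes mark and bind the point at which chromosomes are pulled apart, and all 5 had lower fitted means in old PBS and higher ones in old rMETRNL. Cenpa, the histone of the centromere, was at 11.7, 10.1 and 13.5 CPM in young PBS, 6.74, 10.2 and 8.62 in old PBS, and 12.01, 14.7 and 13.2 in old rMETRNL. Old rMETRNL was above old PBS in each library, with 0.63 ± 0.21 (edgeR adjusted p 0.446). Birc5, survivin, was at 4.80, 2.89 and 5.48 CPM in young PBS, 2.70, 3.85 and 1.51 in old PBS, and 5.15, 4.87 and 3.89 in old rMETRNL. It overlapped between young and old PBS, and old PBS 3 and old rMETRNL 3 were nearly level. Cdca8, Cenpe and Cenpf had log2 fold changes of -0.73 to -0.58 for old against young.

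Of the 7 spindle and cytokinesis genes, Kif11, the motor that pushes the spindle poles apart, was at 6.65, 9.61 and 11.4 CPM in young PBS, 8.42, 11.3 and 3.27 in old PBS, and 12.5, 12.002 and 9.87 in old rMETRNL. Only old PBS 4 was below the young libraries, and the change of -0.26 ± 0.42 (edgeR adjusted p 0.994) was positive without it. Tpx2, which activates Aurka on the spindle, was at 6.88, 6.83 and 10.6 CPM in young PBS, 7.35, 6.69 and 4.97 in old PBS, and 8.36, 6.74 and 7.47 in old rMETRNL, with overlap. Kif20a, a motor of cytokinesis, was at 3.81, 4.50 and 4.97 CPM in young PBS, 2.36, 3.28 and 2.01 in old PBS, and 5.41, 5.21 and 4.35 in old rMETRNL. All old PBS libraries were below the other 6, with -0.79 ± 0.29 (adjusted p 0.736), the lowest adjusted p of any member for old against young, and 0.95 ± 0.29 (adjusted p 0.384). Kif20a shares 29.3% of its exon bases with Cdc23 on the other strand, which was at 23.7 to 28.6 CPM. Kif23, Nusap1 and Prc1 had means of 4.32 to 7.65 CPM in young PBS, 2.68 to 5.89 in old PBS and 5.15 to 8.86 in old rMETRNL. Hmmr, a spindle protein, was at 1.48, 3.76 and 0.755 CPM in old PBS, within the young range in 2 of 3 libraries.

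The ubiquitin ligase that ends mitosis is served by Ube2c and Cdc20, and Cdca3 was listed with them. Ube2c, its conjugating enzyme, was at 8.90, 6.83 and 9.43 CPM in young PBS, 5.80, 11.9 and 5.98 in old PBS, and 8.74, 9.51 and 7.24 in old rMETRNL. Old PBS 3 was the highest library and the others of old PBS the lowest, and the changes of -0.081 ± 0.31 (edgeR adjusted p 0.994) and 0.093 ± 0.31 (adjusted p 0.958) turned sign when single libraries were left out. Ube2c shares 22.8% of its exon bases with Tnnc2, a muscle fibre gene on the other strand that was counted at 1.28 to 2.96 CPM. The fast troponin genes Tnni2 and Tnnt3 of the same fibre list were at 2955 to 7995 and 8320 to 19751 CPM. The Tnnc2 count may therefore not show its level, and whether the overlap affected the counts of either gene was not tested. Cdc20, the activator of the ligase, was at 4.97, 3.50 and 5.53 CPM in young PBS, 3.10, 5.51 and 1.83 in old PBS, and 6.27, 6.17 and 5.12 in old rMETRNL, with old PBS 3 again within the range of the others. Cdca3 had means of 4.27, 2.67 and 4.13 CPM.

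Mki67, the antigen used to stain dividing cells, and Top2a, the enzyme that untangles chromosomes, also differed widely among the old PBS libraries. Mki67 was at 17.2, 28.9 and 41.7 CPM in young PBS, 22.1, 30.2 and 3.90 in old PBS, and 30.6, 31.6 and 26.5 in old rMETRNL. Old PBS 2 and 3 lay inside the young range and old PBS 4 far below it, so that -0.64 ± 0.61 (edgeR adjusted p 0.994) and 0.65 ± 0.54 (adjusted p 0.778) had wide errors. Top2a was at 15.4, 23.2 and 26.2 CPM in young PBS, 13.8, 18.5 and 4.66 in old PBS, and 25.2, 26.4 and 16.4 in old rMETRNL. Its changes were -0.81 ± 0.44 (adjusted p 0.959) and 0.87 ± 0.42 (adjusted p 0.661), with overlap in both comparisons.

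Other genes of the same processes were taken as 8 lists with 109 genes, none of which passed edgeR's or DESeq2's test in any comparison. All 16 further spindle and cytokinesis genes had lower fitted means in old PBS and all 16 higher ones in old rMETRNL than in old PBS, with medians of -0.53 and 0.67. The 12 further kinetochore and checkpoint genes had medians of -0.39 and 0.64, with 11 lower and 11 higher, and the 12 genes of condensin and cohesin control -0.43 and 0.41, with 9 lower and 10 higher. Medians were nearer to 0 for the 21 replication polymerase and fork genes (-0.11 and 0.17) and for the 16 genes of origin licensing and firing (-0.16 and 0.23). The 19 regulators of the MuvB, pocket protein and E2F families, which include repressors of the cycle, had medians of -0.0032 and 0.042. The 6 G1 cyclins and kinases had medians of -0.32 and 0.38, and their member Ccnd1, cyclin D1, was at 21.9, 27.9 and 28.2 CPM in young PBS, 21.5, 23.7 and 12.3 in old PBS, and 32.6, 25.9 and 20.9 in old rMETRNL. The 7 inhibitors of cyclin-dependent kinases had medians of -0.18 and 0.15. Among them Cdkn1a, p21, was at 53.8, 62.5 and 70.1 CPM in young PBS, 67.8, 118.6 and 37.0 in old PBS, and 43.3, 80.7 and 60.4 in old rMETRNL. Cdkn1c, p57, was at 156.5, 96.6 and 107.1 CPM in young PBS, 64.2, 141.5 and 49.2 in old PBS, and 177.0, 123.9 and 119 in old rMETRNL. Cdkn2a, a gene linked to senescence, was at 1.21, 2.50 and 4.40 CPM in young PBS, 0.809, 2.45 and 1.13 in old PBS, and 1.45, 1.25 and 1.90 in old rMETRNL. All 3 inhibitors overlapped between the groups, and each was higher in old PBS 3 than in the other old PBS libraries.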

How the data were processed

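Bulk RNA of injured muscle was measured in 9 libraries, 3 per group. The authors deposited raw counts per Ensembl gene, not normalized, from NEBNext Ultra libraries sequenced paired-end. The submitters' processing notes name STAR, featureCounts and mm9, without versions, and the strand setting and annotation are not given in the sources used here. Symbols, exon lengths and overlaps came from GENCODE M21 (GRCm38), and 54495 genes had a symbol. Groups were compared in pairs with edgeR 4.0.16 in R 4.3.3 (filterByExpr, TMM, glmQLFit, glmQLFTest, Benjamini-Hochberg over all genes, threshold 0.05), and with DESeq2 1.42.0 as an alternative. SE was derived from the log2 fold change and F. CPM used TMM factors over 16124 genes, and log2 CPM a prior count of 2. The fits were tested on simulated data. Library totals ran from 16238700 to 22522560.

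The members and all gene lists were chosen with earlier results of these data known. Values in every library were given for the 2 members of each role list with the highest counts per kilobase, for members that passed the test, and for those with the largest and smallest fold change in each comparison. Of the other cell cycle genes, Ccnd1, Cdkn1a, Cdkn1c, Cdkn2a and Mybl2 were named. Alternatives were other size factors, other filters, a single fit of the 9 libraries, a replicate block, sizes without fibre and mitochondrial genes, and each library left out. The comparisons of single old PBS libraries were chosen after seeing the data. No 2 libraries of a group agreed within sampling noise.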

Additional observations from a re-analysis of the deposited data

How the results depend on the processing

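With 3 libraries a group and members at a few CPM, depth limits the genes at the bottom of the range, Ttk above all. No member was called for old PBS against young PBS or for old rMETRNL against young PBS under any alternative. For old rMETRNL against old PBS, 3 members were called without the filter on low counts, the count ran from 0 to 9 over the leave-one-out fits (9 without old PBS 3), and it was 0 under the others. The median log2 fold change of the members kept its sign for the comparisons with old PBS under every alternative. For old rMETRNL against young PBS it ran from -0.017 to 0.26 (without young PBS 3) over the leave-one-out fits. With old PBS 3 as the lone old PBS library, the median for rMETRNL against old PBS was 0.17. With old PBS 4 alone, it was 1.26, and -1.17 for old against young. At least 10 counts in every library left 41 members in the comparisons with old PBS.

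Signs turned for Aurka, Bub1b, Kif11, Ube2c and Rrm1, all far from the threshold, and the cause was not tested. For old against young over the leave-one-out fits, Aurka ran from -0.30 to 0.30, Bub1b from -0.31 to 0.31, Kif11 from -0.66 to 0.10 and Ube2c from -0.52 to 0.10. For rMETRNL against old PBS, Aurka ran from -0.31 to 0.22, Bub1b from -0.040 to 0.58 and Ube2c from -0.087 to 0.53. With the replicate block, Aurka was at -0.045 and Ube2c at 0.065 for old against young, and Rrm1 at 0.046, Aurka at 0.36, Bub1b at -0.26 and Ube2c at -0.024 for rMETRNL against old PBS. The replicate block called 0 members in each comparison, with medians of -0.35, 0.33 and 0.062. Old PBS shares only the numbers 2 and 3 with the other groups. Deviations of same-numbered libraries correlated at 0.11 and 0.41 between old and young PBS, at -0.05 and -0.32 between old rMETRNL and old PBS, and at -0.18 to 0.02 between old rMETRNL and young PBS, so the numbers were not taken to pair the libraries.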
